A study of Homo sapiens with 5 samples.

Results

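The ADAMTS genes encode secreted zinc proteases that cut proteins of the extracellular matrix. The members described here were found by a rule on names, as every listed gene whose symbol is ADAMTS followed by a number, and the protease-free ADAMTSL relatives were set apart. The rule found 10 of the 2694 genes in the deposited tables: ADAMTS1, ADAMTS2, ADAMTS4, ADAMTS5, ADAMTS6, ADAMTS7, ADAMTS12, ADAMTS13, ADAMTS16 and ADAMTS17. GENCODE annotates 19 protein-coding genes with such a name. The other 9 (ADAMTS3, ADAMTS8, ADAMTS9, ADAMTS10, ADAMTS14, ADAMTS15, ADAMTS18, ADAMTS19 and ADAMTS20) are not among the listed genes and were not analysed here.

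The study asked how gene expression in TC28a2, a human chondrocyte line that the labels assign to costal cartilage, differs when the cells are moved to a medium that drives hypertrophy, the enlarged late state of cartilage cells. Total RNA was sequenced on day 5 from 2 libraries of cells in growth medium (GM1 and GM2) and 3 of cells in hypertrophic medium (HM1, HM2 and HM3). Growth medium was high-glucose DMEM with 10% fetal bovine serum, and both media held an antibiotic and antimycotic mix. Hypertrophic medium held 1% serum and 1% ITS-A (insulin, transferrin and selenium). Its growth factors were BMP-2 at 100 ng/ml and GDF-5 at 10 ng/ml, its hormones were T3 (triiodothyronine) at 1 µM and the glucocorticoid dexamethasone at 10 nM, and it was completed with β-glycerophosphate at 10 mM and ascorbic acid at 50 µg/ml. The media therefore differ in serum and in every added agent at once, and the part of any single agent cannot be told apart. All libraries come from 1 cell line. The study describes its replicates as biological in general, but the labels do not tie these libraries to separate cultures, so p-values measure the spread between these libraries.

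Each value is a log2 expression value after RLE normalization, which divides a library by the median of its gene-wise ratios to a reference. A difference of 1 is a doubling on a plain log2 scale. Whether the authors used plain log2 or a form that draws values together is not given in the sources used here, and every fold and share below assumes plain log2. The paper describes its called transcripts as beyond a log2 fold change of 2. Of the listed genes only 11.8% were called higher and 7.05% lower by at least 1 here. If the values were drawn together, the folds below are too small. The read depth behind the values is unknown. The listed genes appear to be those that the authors' own test called on these libraries: 2667 of the 2694 had libraries of the media that did not overlap (99.0%). Passing a test on this list is therefore the rule and not the exception, and the size and order of the differences carry the description. The median over all listed genes was 8.17 and 8.18 in growth medium and 8.43 to 8.62 in hypertrophic medium. Centring each library on its own median lowers every difference by 0.35, and where that ends a call it is said beside the value. Since 63.4% of the listed genes were higher in hypertrophic medium, this median also carries the make-up of the list. Centring on it is therefore an alternative and not a test of the authors' scaling.

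Cartilage owes its resistance to compression to aggrecan, a large proteoglycan held in place by hyaluronan and link protein, and its tensile strength to fibrils of type II collagen. ADAMTS4 and ADAMTS5 are the main aggrecanases, the enzymes that cut the core protein of aggrecan, and ADAMTS1 cuts aggrecan and its relative versican. ADAMTS2 removes the amino-terminal propeptide of fibrillar procollagens, a step before fibrils form. Of the other members, ADAMTS7 and ADAMTS12 can cut the cartilage protein COMP, ADAMTS13 cuts von Willebrand factor in blood, and ADAMTS6 and ADAMTS17 are linked to the fibrillin microfibrils. They are made with a propeptide, which in most members keeps the enzyme inactive, and the enzyme binds a zinc ion through histidines of the catalytic domain.

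The coding bases of that zinc-binding site are found once in each of the 10 members, and they are shown because they relate the members to one another independently of expression. Each run has 33 bases, 11 codons, read from the GRCh37 genome along the coding strand, and the capitals mark the 3 histidine codons.
ADAMTS1: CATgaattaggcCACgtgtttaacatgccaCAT
ADAMTS4: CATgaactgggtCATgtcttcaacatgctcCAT
ADAMTS5: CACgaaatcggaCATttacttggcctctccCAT
ADAMTS2: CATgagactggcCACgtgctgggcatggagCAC
ADAMTS6: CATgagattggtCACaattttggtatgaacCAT
ADAMTS7: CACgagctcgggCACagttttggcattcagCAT
ADAMTS12: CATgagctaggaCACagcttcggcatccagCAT
ADAMTS13: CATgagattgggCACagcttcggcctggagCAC
ADAMTS16: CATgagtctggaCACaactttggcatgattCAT
ADAMTS17: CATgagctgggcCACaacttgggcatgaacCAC
ADAMTS7 and ADAMTS12 had the closest pair of sites, differing at 6 of the 33 bases. ADAMTS1 and ADAMTS4 differed at 8, whereas ADAMTS5 differed from each of them at 14 and from the other 7 members at 13 to 16. In every member 1 intron interrupts the site. It lies after base 10 of the printed run in ADAMTS1, ADAMTS4 and ADAMTS5, and after base 17 in the other 7, so the aggrecanase group of the rule is also marked by its exon structure.

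In hypertrophic medium 6 members were higher and 4 were lower by limma with Benjamini-Hochberg adjustment over all listed genes (adjusted p under 0.05). Over the whole list 62.5% of genes were called higher and 36.5% lower, so the members split much as the list does. The median difference of the members was 0.62, against 0.56 for all listed genes. ADAMTS5 and ADAMTS2 rose by at least 1, a size that 11.8% of listed genes reached upward, and ADAMTS6 fell by at least 1, as 7.05% of listed genes did. After median centring ADAMTS1, ADAMTS12 and ADAMTS17 also fell by at least 1, and ADAMTS4 and ADAMTS7 no longer passed the test. No member changed direction under any alternative run. For all 10 members the growth and hypertrophic libraries were fully apart, as for 99.0% of the list.

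**Figure D1:**
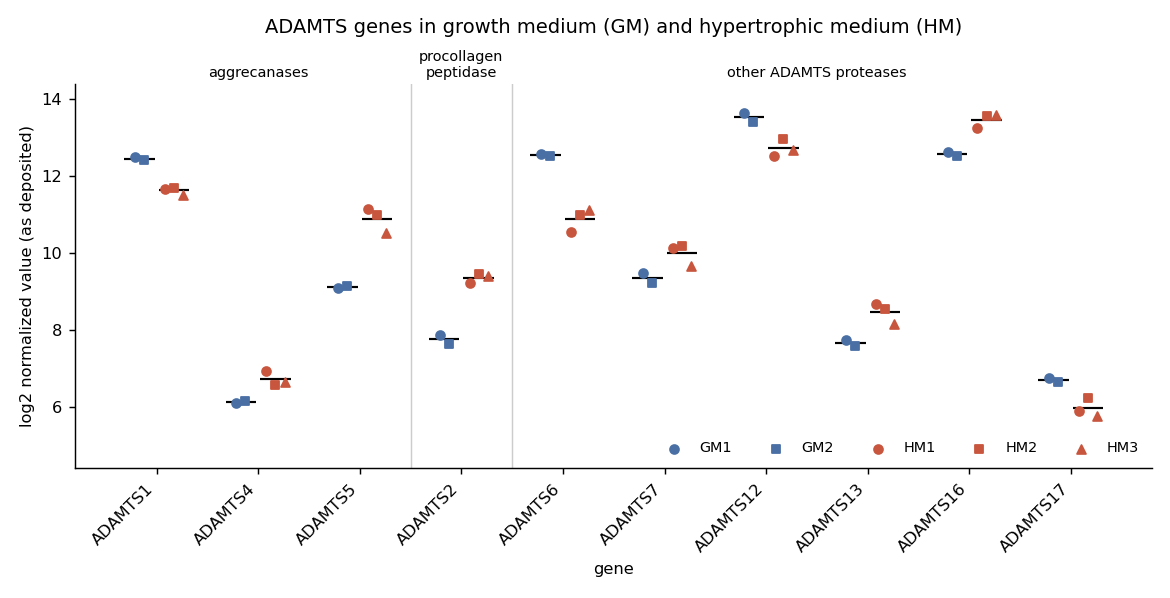
Log2 normalized value (vertical axis, as deposited) of each ADAMTS gene (horizontal axis, grouped by role) in the 2 growth medium libraries (blue) and the 3 hypertrophic medium libraries (red). Each point is a library and each black line a group mean. ADAMTS1, ADAMTS6, ADAMTS12 and ADAMTS17 lie lower in all 3 hypertrophic libraries and the other 6 genes lie higher.

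The aggrecanase genes moved in opposite directions, with ADAMTS5 and ADAMTS4 higher and ADAMTS1 lower in hypertrophic medium. ADAMTS5 (GRCh37 chr21:28290241-28339407, minus strand) had the largest rise of the family. Its values were 9.08 and 9.13 in GM1 and GM2 and 11.16, 11.00 and 10.52 in HM1, HM2 and HM3. The growth medium libraries nearly coincided, and the lowest hypertrophic library, HM3, stood 1.39 above the higher of them. The difference was 1.79 ± 0.18 (SE, n = 2 and 3; limma adjusted p = 8.16e-05), 3.45-fold on a plain log2 scale, and the 39th largest of 1707 increases.

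ADAMTS4 (GRCh37 chr1:161154092-161168844, minus strand), the other main aggrecanase, had the second lowest mean value of the family. It measured 6.09 and 6.14 in growth medium and 6.94, 6.56 and 6.63 in HM1, HM2 and HM3. All hypertrophic libraries were higher, HM1 most. The difference of 0.60 ± 0.16 (SE, n = 2 and 3; limma adjusted p = 0.00655) fell to 0.25 after median centring (limma adjusted p = 0.162), so this call was not kept under that centring.

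ADAMTS1 (GRCh37 chr21:28208074-28217728, minus strand) lies next to ADAMTS5 on chromosome 21, on the same strand, with 72512 bases between the genes. Its values were 12.49 and 12.41 in growth medium and 11.67, 11.70 and 11.51 in hypertrophic medium. The hypertrophic libraries lay within 0.19 of each other and below both growth medium libraries. ADAMTS1 fell by 0.82 on the log2 scale, with an SE of 0.12 (n = 2 and 3; limma adjusted p = 0.000352). The neighbouring genes thus differed between the media in opposite directions.

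Comparing the aggrecanase genes inside a library removes any scaling factor shared by all genes of that library. The log2 value of ADAMTS5 minus that of ADAMTS1 was -3.41 and -3.28 in GM1 and GM2, and -0.51, -0.70 and -0.99 in HM1, HM2 and HM3. The gap between both genes narrowed by 2.61 on average, more than either gene moved alone. ADAMTS4 minus ADAMTS1 went from -6.40 and -6.27 to between -5.13 and -4.73, a shift of 1.42. ADAMTS5 also gained on ADAMTS4: their difference was 2.99 in both growth medium libraries and 4.21, 4.43 and 3.88 in HM1, HM2 and HM3, a shift of 1.19. None of the 3 differences overlapped between the media. Each had p = 0.1 in a two-sided exact permutation test of the libraries, which is the smallest p that the 10 possible splits allow. For the pairs with ADAMTS1 this outcome was fixed in advance. There each gene alone already separated the media, in opposite directions. Only ADAMTS5 minus ADAMTS4, where both genes rose, could have overlapped.

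**Figure D2:**
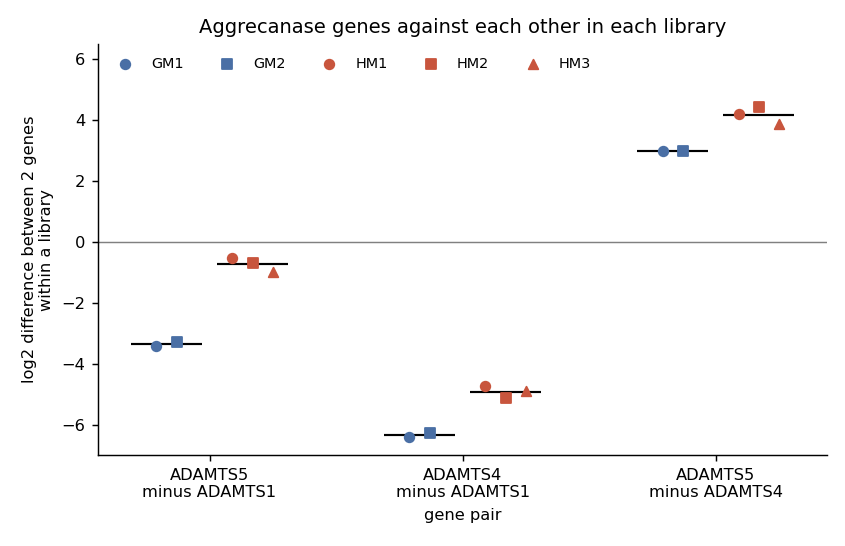
Difference in log2 value between 2 aggrecanase genes within each library (vertical axis) for 3 gene pairs (horizontal axis). Points are libraries, blue for growth and red for hypertrophic medium, and black lines are group means. ADAMTS5 minus ADAMTS1 rises from a mean of -3.34 to -0.74.

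Levels can be compared between genes only per length, so log2 of the transcript length in kb was subtracted from each value, using 1 reference transcript per gene. On this length-scaled log2 scale ADAMTS1 stood at a mean level of 10.1 in growth medium and 9.25 in hypertrophic medium, ADAMTS5 at 5.84 and 7.62, and ADAMTS4 at 2.83 and 3.42. ADAMTS1 therefore remained the highest of the 3 aggrecanase genes in every library. As a share of the linear length-scaled levels of these 3 genes, ADAMTS1 took 94.6% and 94.1% in GM1 and GM2 and 71.5%, 74.3% and 77.6% in HM1, HM2 and HM3. The share of ADAMTS5 went from 4.79% and 5.23% to 27.0%, 24.6% and 21.0%, while ADAMTS4 stayed below 1.5% throughout. The log2 of the summed length-scaled level of the 3 genes was 10.2 and 10.1 in growth medium and 9.78, 9.75 and 9.50 in hypertrophic medium, a mean difference of -0.48, or -0.83 after median centring, which was added after the values were seen. These shares are descriptions: other transcripts than the reference ones may be present, and the shares assume plain log2 values.

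The hyalectans and other matrix proteins that aggrecanases cut, or that bind beside them, form the list of substrates. Of its 13 genes 5 are listed, all 5 passed the test upward, where 62.5% of all listed genes did, and their median difference was 1.30 against 0.56 for all listed genes. ACAN, the aggrecan gene, was 6.95 and 6.63 in growth medium and 8.24, 7.65 and 7.89 in hypertrophic medium, a difference of 1.14 ± 0.20 (SE; limma adjusted p = 0.000993). VCAN, the versican gene, rose by 1.97 ± 0.13. BGN and LUM, which encode small leucine-rich proteoglycans, rose by 2.10 ± 0.21 and 1.30 ± 0.18. HAPLN3, a link protein gene, rose by 0.66 ± 0.13 and lost its call under quantile normalization (limma adjusted p = 0.0612). These are transcript levels, and protein levels were not analysed here.

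TIMP proteins inhibit metalloproteases, and TIMP3 is the best known inhibitor of ADAMTS4 and ADAMTS5. Of 6 inhibitor genes 3 are listed, with TIMP1 and TIMP2 higher and TIMP3 lower, a split near that of all listed genes (62.5% and 36.5%). TIMP3 was 11.79 and 11.86 in growth medium and 11.22, 10.99 and 10.87 in hypertrophic medium, and fell by 0.80 on the log2 scale with an SE of 0.13 (limma adjusted p = 0.000776). TIMP1 rose by 0.83 ± 0.18. The rise of TIMP2, 0.58 ± 0.14, lost its call after median centring (limma adjusted p = 0.108). Within a library ADAMTS5 minus TIMP3 was -2.71 and -2.72 in growth medium and -0.06, 0.00 and -0.35 in HM1, HM2 and HM3. The shift of 2.58 is unchanged by a scaling factor shared by all genes of a library. It was 2.45 under quantile normalization, added after the values were seen. The exact permutation p of 0.1, the smallest possible, was fixed in advance, since each gene alone separated the media in opposite directions. This pair was chosen after its values were seen.

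Uptake into the cell also limits aggrecanases in the matrix, through the endocytic receptor LRP1. Of 11 genes for activation and uptake 3 are listed, and all 3 passed the test upward, where 62.5% of all listed genes did. LRP1 was 13.40 and 13.16 in growth medium and 14.39, 14.39 and 13.84 in hypertrophic medium, a difference of 0.92 ± 0.18 (SE; limma adjusted p = 0.00138). SDC3, a cell-surface heparan sulfate proteoglycan, rose by 1.36 ± 0.16, and its relative SDC2 rose by 0.59 ± 0.13 but lost its call after median centring (limma adjusted p = 0.166).

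ADAMTS2 (GRCh37 chr5:178537854-178772462, minus strand), the procollagen N-peptidase, was the other member that rose by more than 1. It measured 7.88 and 7.63 in growth medium and 9.22, 9.44 and 9.41 in HM1, HM2 and HM3. The hypertrophic libraries lay within 0.22 of each other and at least 1.34 above growth medium. The difference was 1.61 ± 0.15 (SE, n = 2 and 3; limma adjusted p = 5.7e-05), 3.04-fold on a plain log2 scale, and the 61st largest increase. With each library left out in turn it stayed between 1.48 and 1.73.

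Of 15 genes for fibrillar procollagens and their processing 6 are listed, with 4 called higher and 2 lower, a split near that of all listed genes (62.5% and 36.5%). COL2A1, COL3A1 and COL1A1 encode chains of collagens that ADAMTS2 can trim. They rose by 1.53 ± 0.18, 1.07 ± 0.16 and 0.64 ± 0.21, and the call for COL1A1 was lost after median centring (limma adjusted p = 0.289). PCOLCE, an enhancer of carboxy-terminal propeptide removal, rose by 1.19 ± 0.15, while its relative PCOLCE2 fell by 0.61 with an SE of 0.14. TLL1, a tolloid-like protease for the carboxy-terminal propeptide, fell by 0.74 with an SE of 0.12. ADAMTS2 minus COL1A1 within a library, a pair chosen after the values were seen, was -8.82 and -8.84 in growth medium and -7.67, -8.19 and -7.73 in HM1, HM2 and HM3, a shift of 0.97 (exact permutation p = 0.1, the smallest possible) that was 0.59 under quantile normalization, an alternative added after the values were seen.

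ADAMTS6 (GRCh37 chr5:64444565-64777747, minus strand) had the largest fall of the family. Its values were 12.57 and 12.52 in growth medium and 10.54, 10.99 and 11.12 in HM1, HM2 and HM3. The highest hypertrophic library was 1.40 below the lowest growth medium library, and HM1 was lowest. ADAMTS6 fell by 1.66 on the log2 scale with an SE of 0.17 (n = 2 and 3; limma adjusted p = 7.65e-05), 3.16-fold on a plain log2 scale, and the 57th largest of 987 decreases. Among the listed genes of a similar mean value, taken as 10 equal groups, it had the third largest of 82 decreases.

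ADAMTS17 (GRCh37 chr15:100511642-100882210, minus strand), linked like ADAMTS6 to fibrillin microfibrils, was also lower. It measured 6.74 and 6.64 in growth medium and 5.88, 6.22 and 5.77 in hypertrophic medium. All hypertrophic libraries lay below growth medium, and HM2 came closest. ADAMTS17 fell by 0.73 with an SE of 0.17 (n = 2 and 3; limma adjusted p = 0.00292). An antisense gene, ENSG00000254744, covers 6.81% of its exon bases, and the library kit keeps strand, but whether the counting used strand is not given in the sources used here.

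Of 12 microfibril genes 3 are listed, and all 3 were called higher, as 62.5% of all listed genes were. MFAP4, a microfibril-associated protein, was 8.16 and 7.95 in growth medium and 11.19, 10.08 and 10.12 in hypertrophic medium, a difference of 2.41 ± 0.30 (SE; limma adjusted p = 0.0002). LTBP2 and LTBP4, latent TGF-β binding proteins, rose by 1.09 ± 0.20 and 1.04 ± 0.17. The fibrillin genes FBN1 and FBN2 are not listed.

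ADAMTS7 and ADAMTS12, the pair with the closest zinc-site sequences, differed in direction. ADAMTS12 (GRCh37 chr5:33523640-33892124, minus strand) was 13.65 and 13.41 in growth medium and 12.53, 12.96 and 12.67 in hypertrophic medium. It was lower in all hypertrophic libraries, by 0.45 where the groups came closest. ADAMTS12 fell by 0.81 with an SE of 0.15 (n = 2 and 3; limma adjusted p = 0.00112).

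ADAMTS7 (GRCh37 chr15:79051548-79103806, minus strand) was 9.49 and 9.21 in growth medium and 10.14, 10.19 and 9.66 in hypertrophic medium. HM3 exceeded GM1 by 0.18 only, the narrowest gap of any member. Its difference of 0.65 ± 0.18 (SE, n = 2 and 3; limma adjusted p = 0.00799) is the least stable of the family. It lost its call without GM2 (difference 0.51, limma adjusted p = 0.0743), after median centring (0.30, adjusted p = 0.117) and under quantile normalization (0.20, adjusted p = 0.27). The value is also uncertain because 6.51% of the 100-base windows of its transcript also occur in annotated pseudogenes of the family, of which 3 were compared. ADAMTS7 minus ADAMTS12 within a library, a pair chosen after its values were seen, was -4.16 and -4.20 in growth medium and -2.39, -2.77 and -3.01 in HM1, HM2 and HM3, a shift of 1.46. Its exact permutation p of 0.1, the smallest possible, was fixed in advance, since each gene alone separated the media in opposite directions.

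ADAMTS16 (GRCh37 chr5:5140443-5320417, plus strand) was among the most abundant members. It measured 12.62 and 12.53 in growth medium and 13.24, 13.56 and 13.58 in hypertrophic medium. The hypertrophic libraries were all higher, by at least 0.62, with HM1 the lowest of them. The difference was 0.89 ± 0.13 (SE, n = 2 and 3; limma adjusted p = 0.000484).

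ADAMTS13 (GRCh37 chr9:136279478-136324524, plus strand) is best known as a plasma enzyme made in the liver. It was 7.74 and 7.59 in growth medium and 8.68, 8.54 and 8.15 in hypertrophic medium. HM3 was the lowest of the hypertrophic libraries and still above both growth medium libraries. The difference was 0.79 ± 0.19 (SE, n = 2 and 3; limma adjusted p = 0.00329). VWF, which encodes its substrate, is not listed.

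**Figure D3:**
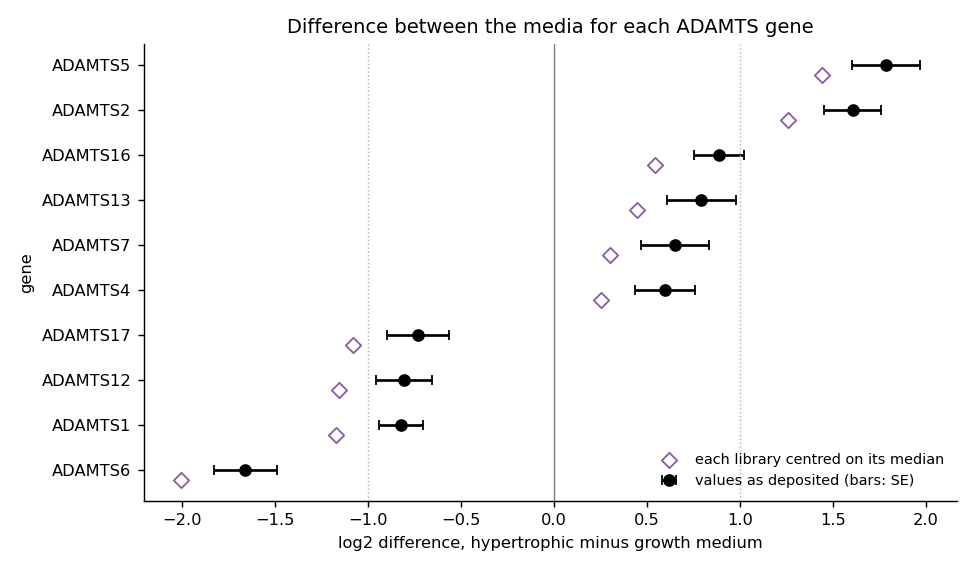
Log2 difference between hypertrophic and growth medium (horizontal axis) for each ADAMTS gene (vertical axis), from the values as deposited (black, bars are SE) and after centring each library on its median (open diamonds). The dotted lines mark differences of -1 and 1. Centring moves all genes to the left by 0.35, and ADAMTS4 and ADAMTS7 then lie at 0.25 and 0.30.

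On the length-scaled log2 scale the order of mean levels in growth medium was ADAMTS12, ADAMTS16, ADAMTS1, ADAMTS6, ADAMTS7, ADAMTS5, ADAMTS13, ADAMTS2, ADAMTS17 and ADAMTS4. No neighbours in this order overlapped between libraries, although the lowest ADAMTS12 library and the highest ADAMTS16 library were 10.31 and 10.30. In hypertrophic medium the order was ADAMTS16, ADAMTS12, ADAMTS1, ADAMTS6, ADAMTS5, ADAMTS7, ADAMTS2, ADAMTS13, ADAMTS4 and ADAMTS17. There the libraries of 4 neighbouring pairs overlapped: ADAMTS6 with ADAMTS5, ADAMTS5 with ADAMTS7, ADAMTS2 with ADAMTS13, and ADAMTS4 with ADAMTS17.

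The summed length-scaled level of all 10 members overlapped between the media in the values as deposited. Its log2 was 12.29 and 12.16 in growth medium and 12.01, 12.26 and 12.16 in hypertrophic medium. After median centring, added once the values had been seen, the sum was 4.12 and 3.97 against 3.39, 3.75 and 3.73, lower in all hypertrophic libraries. The overlap was thus not kept under that centring. The make-up of the sum differed: the ADAMTS16 share was 25.3% and 26.0% in GM1 and GM2 and 47.3%, 49.5% and 53.8% in HM1, HM2 and HM3. ADAMTS6 went from 16.6% and 17.6% to between 4.95% and 6.66%, and ADAMTS12 from 30.0% and 27.7% to between 16.6% and 18.9%. ADAMTS5 remained a small part of the sum, with 1.12% and 1.28% in growth medium and 3.33% to 5.77% in hypertrophic medium. By this measure ADAMTS12 held the largest share in both growth medium libraries and ADAMTS16 in all 3 hypertrophic libraries.

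**Figure D4:**
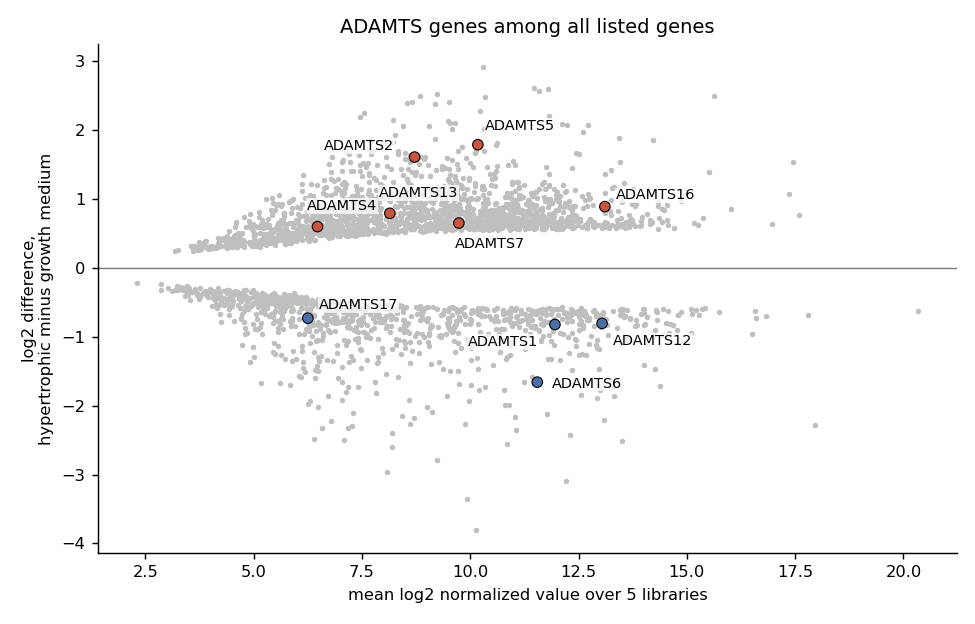
Log2 difference between the media (vertical axis) against the mean log2 normalized value over the 5 libraries (horizontal axis) for all 2694 listed genes (grey) and the ADAMTS genes (red where higher and blue where lower in hypertrophic medium). The empty band around 0 shows the selection of the list. ADAMTS5, ADAMTS2 and ADAMTS6 lie far from the band, and ADAMTS7 lies near it.

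The list holds no gene with a difference near 0, and the smallest difference in it grows with the level. In the lowest of 10 equal groups by mean value the smallest rise was 0.25 and the smallest fall was -0.21, and in the highest group they were 0.57 and -0.59. ADAMTS7 lay close to this edge, with a rise of 0.65 where the smallest rise in its group was 0.54, and ranked 151st of 199 increases there. ADAMTS4 ranked 78th of 152 in its group, where the smallest rise was 0.38. ADAMTS5 ranked 7th of 199 and ADAMTS2 13th of 195 in theirs.

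Within hypertrophic medium the members did not share 1 order of libraries. HM2 gave the highest value for 5 members, HM1 for 3 and HM3 for 2, and HM3 gave the lowest value for 5 members, HM1 for 4 and HM2 for 1. ADAMTS5 was highest in HM1 and lowest in HM3, while ADAMTS6 was lowest in HM1 and highest in HM3, so for both HM1 was farthest from growth medium. The listed genes whose values followed ADAMTS5 most closely over the 5 libraries, each set against its own growth medium mean, were FAIM2, TMEM26 and ANK3, with root mean square distances of 0.12, 0.14 and 0.15. Those closest to ADAMTS6 were IL7R, MYOCD and GALNT18, with 0.05, 0.09 and 0.10.

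Of 7 ADAMTSL-type genes, which lack a protease domain, ADAMTSL2, ADAMTSL4 and PAPLN are listed. They rose by 0.42 ± 0.14, 0.54 ± 0.19 and 0.58 ± 0.17, and all 3 lost their calls after median centring (limma adjusted p = 0.678, 0.353 and 0.282). Of the ADAM genes, which encode membrane-bound relatives, 3 are listed. ADAM9 fell by 0.83 with an SE of 0.11 (limma adjusted p = 0.000231), and by 1.18 after median centring, while ADAM33 and ADAM11 rose by 0.65 ± 0.20 and 0.60 ± 0.18 and lost their calls after median centring (limma adjusted p = 0.156 and 0.152).

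Inflammatory cytokines and TGF-β are known regulators of aggrecanase genes. The list of 25 regulator genes also holds receptors and transcription factors. Of the 25, 11 are listed, with 8 called higher and 3 lower, against 62.5% and 36.5% of all listed genes. IL1B was 7.94 and 7.84 in growth medium and 5.27, 5.54 and 5.39 in hypertrophic medium, and fell by 2.49 with an SE of 0.15 (limma adjusted p = 7.14e-06). IL6 fell by 2.17 with an SE of 0.27. IL1R1, the receptor through which IL-1 acts, rose by 1.47 ± 0.18, and TGFB3, a TGF-β ligand, rose by 1.18 ± 0.16. The other TGF-β ligand genes, named after their values were seen, did not share 1 direction: TGFB1 rose by 0.87 ± 0.16, and TGFB2 fell by 0.83 with an SE of 0.11 (limma adjusted p = 0.000306). The transcription factor gene RUNX3, also named after its value was seen, rose by 0.87 ± 0.15. Of the 8 that were higher, SOX9, TNFRSF1A, TGFBR2 and EPAS1 lost their calls after median centring.

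**Figure D5:**
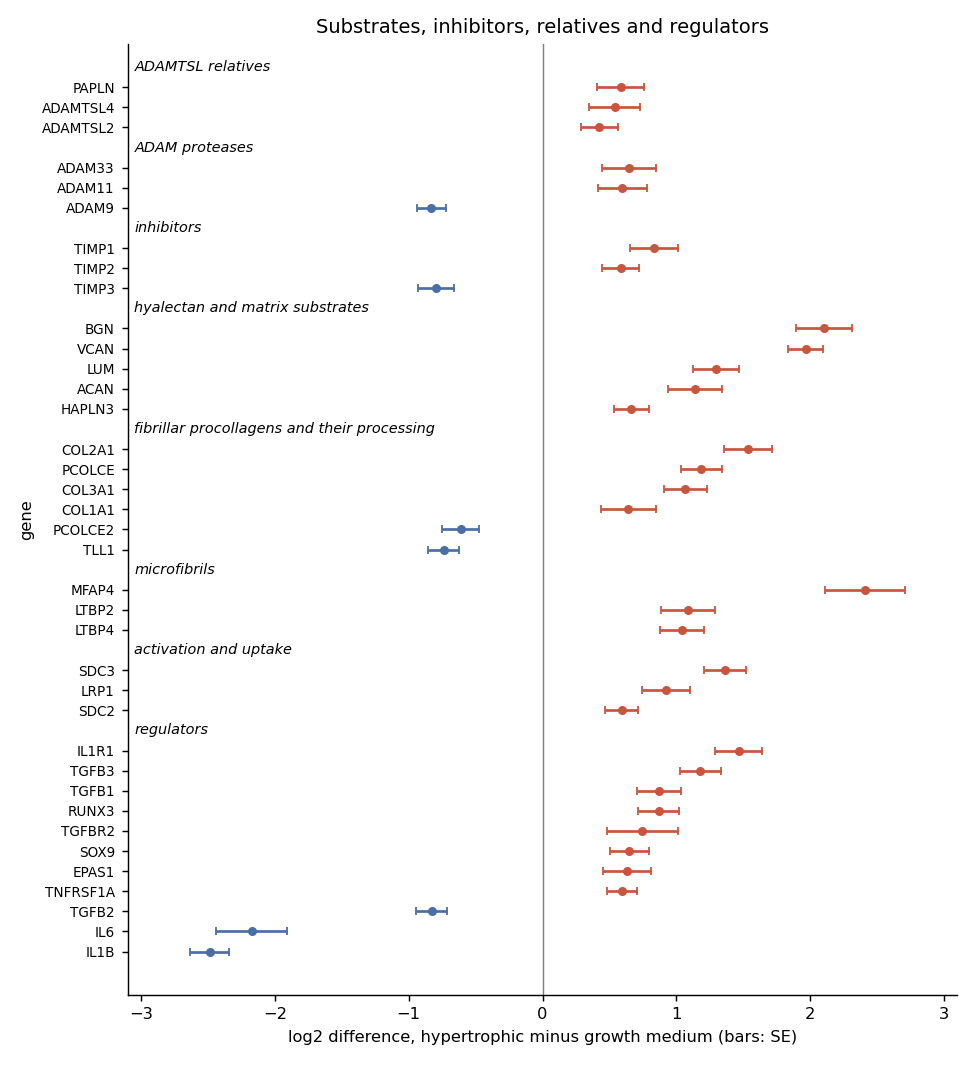
Log2 difference between hypertrophic and growth medium (horizontal axis, bars are SE) for the listed genes of 8 lists around the ADAMTS proteases (vertical axis, grouped by list). All 5 substrate genes, all 3 microfibril genes and all 3 activation and uptake genes lie to the right of 0, while TIMP3, ADAM9, TLL1, PCOLCE2, TGFB2, IL6 and IL1B lie to the left.

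Markers of cell types and cell states were also looked up among the listed genes. Of 16 chondrocyte markers 5 are listed and all 5 were called higher (SOX9, ACAN, COL2A1, COL9A2 and COL9A3), where 62.5% of all listed genes were. The log2 of their summed level was 12.03 to 12.06 in growth medium and 12.80 to 13.17 in hypertrophic medium. Of 8 hypertrophic markers only MMP13 and PTH1R are listed, both higher, with a summed level of 7.73 to 7.82 against 8.44 to 8.77, and RUNX2, IHH and COL10A1 are not listed. Of 7 fibroblast markers 4 are listed and higher (COL1A1, COL3A1, PDGFRA and TNXB), with a summed level of 17.58 to 17.72 against 18.28 to 18.67. Endothelial markers were mixed, with CDH5 lower and TEK higher and 3 of 5 not listed, and their summed level was 8.47 to 8.48 against 8.05 to 8.37. Of 5 epithelial markers KRT18 was lower and CDH1 higher, with a summed level of 15.06 to 15.12 against 14.02 to 14.51, and none of the 5 blood markers is listed. The epithelial sum is almost wholly KRT18, since CDH1 had means of 4.04 in growth medium and 4.48 in hypertrophic medium. None of the marker sums was scaled by length, and the genes with the highest values weigh most in them. The calls of SOX9, MMP13, COL1A1, TNXB and CDH1 were lost after median centring. No listed marker was at 0, since genes with a zero count were left out by the authors. Whether these shifts take part in the differences of the ADAMTS genes was not tested, and in bulk RNA fewer cells of a kind and less RNA per cell cannot be told apart.

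The upstream bases of ADAMTS2 and ADAMTS6 are shown because these are the members past a difference of 1, in opposite directions, for which the RefSeq promoter table (GRCh38.p14) has an entry. ADAMTS7, ADAMTS12, ADAMTS13 and ADAMTS17 have entries too, and ADAMTS1, ADAMTS4, ADAMTS5 and ADAMTS16 have none. Each run is the 250 bases before the annotated start, at chr5:179345462-179345711 and chr5:65481921-65482170, both on the minus strand and printed along it. Capitals mark the GC box letters GGGCGG in ADAMTS2 and the TEAD motif letters GGAATG in ADAMTS6, searched on both strands.
ADAMTS2: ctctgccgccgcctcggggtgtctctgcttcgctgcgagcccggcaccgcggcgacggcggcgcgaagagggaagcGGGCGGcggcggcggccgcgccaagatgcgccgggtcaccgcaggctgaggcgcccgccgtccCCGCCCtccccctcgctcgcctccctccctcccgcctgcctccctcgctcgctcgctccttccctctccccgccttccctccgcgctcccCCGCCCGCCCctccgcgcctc
ADAMTS6: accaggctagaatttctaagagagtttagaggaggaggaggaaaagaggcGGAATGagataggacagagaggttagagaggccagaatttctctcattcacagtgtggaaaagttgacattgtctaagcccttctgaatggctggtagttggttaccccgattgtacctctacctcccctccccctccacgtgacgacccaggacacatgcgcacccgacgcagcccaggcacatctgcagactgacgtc
The ADAMTS2 run was 80.0% G and C and held 4 GC box matches, some overlapping, and the ADAMTS6 run was 52.4% G and C and held none. The median over 35116 promoters was 58.0%. A GC box was found in 5 of the 6 members with an entry and in 42.6% of all promoters, and GGAATG in ADAMTS6 and ADAMTS12 and in 11.9% of all promoters. The RUNX core letters TGTGGT occurred in ADAMTS17 and in 11.0% of all promoters, and the AP-1 letters TGANTCA in ADAMTS12 and in 6.57%. The TATA box letters TATAAA, the glucocorticoid half-site AGAACA and the thyroid hormone half-site AGGTCA were in none of the 6 windows, and in 10.7%, 12.4% and 12.1% of all promoters. These matches describe letters in the window and not binding of a factor.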

How the data were processed

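A stranded kit was used for the 5 total RNA libraries, 2 from growth and 3 from hypertrophic medium. The deposited files hold log2 values after RLE normalization by the authors, 1 file per library, with the same 2694 genes in each. According to the study's methods, reads were aligned to hg19 with HISAT2 and counted with StringTie, and genes with a zero count were left out. The submitters' processing notes instead name bcl2fastq 2.20.0.422, cutadapt 1.18, TopHat2 2.0.13, Cuffdiff 2.2.1 and the rat build rn5, and the gene symbols in the files are human. The kind of log2 transformation is not given in the sources used here. Read depth is unknown, so no counting error was given, and the precision rests on the number of libraries.

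Libraries were assigned to media from the sample labels. For the media comparison, limma 3.58.1 (R 4.3.3; lmFit, eBayes with a mean-variance trend) was fitted to the deposited values of all 2694 genes, with Benjamini-Hochberg adjustment. A positive difference is higher in hypertrophic medium. Calls used an adjusted p under 0.05, also with a difference of at least 1. Within-library differences were tested by two-sided exact permutation of the 5 libraries. Members and gene lists were chosen with earlier results of these data known. From each list around the proteases up to 4 listed genes with the largest absolute difference were named, or all where 6 or fewer were listed, with others that lost a call, and the 3 closest profiles for the largest rise and the largest fall. Marker lists were counted, with their listed genes named. A further gene of the lists is not reported here. Pairs chosen after their values were seen are marked, and the shares of summed levels and the marker sums were also chosen then. Gene positions, lengths and coding bases came from GENCODE 44 on GRCh37, and all 10 members matched by symbol. Promoters came from RefSeq on GRCh38.p14, and 6 members matched. Protein sequences were not used here. Other steps used Python 3.11.15 and pandas 2.3.3. The alternatives were median centring, quantile normalization, eBayes without a trend, a filter on a mean under 6, each library left out, the replicate number as a block, raw p values and a difference above 2.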

Additional observations from a re-analysis of the deposited data

How the results depend on the processing

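All 10 members kept their direction under every alternative run, and by an adjusted p under 0.05 alone 8 of the 10 kept their calls in all of them. The exceptions were ADAMTS4 after median centring and ADAMTS7 after median centring, under quantile normalization and without GM2, with the values given above. The number of members called higher went from 6 to 4 after median centring and to 5 under quantile normalization, and the number called lower stayed at 4. The number lower by at least 1 went from 1 to 4 after median centring, which lowers all differences alike. With a difference above 2 required, 0 members were called in either direction, against 2 higher and 1 lower with at least 1.

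Leaving out each library in turn, the shift of ADAMTS5 against ADAMTS1 was 2.50 to 2.74, that of ADAMTS4 against ADAMTS1 was 1.33 to 1.53 and that of ADAMTS5 against ADAMTS4 was 1.06 to 1.33. Differences of ADAMTS5 were 1.65 to 1.97 and those of ADAMTS6 -1.78 to -1.49. With the replicate number as a block, 6 members were higher and 4 lower, 2 and 1 of them by at least 1, and the shifts from replicates 1 and 2 only were 2.74, 1.40 and 1.33. HM3 is alone in its block, so the differences and shifts of this run equal those without HM3. Under quantile normalization, added for these shifts after the values were seen, they were 2.28, 1.45 and 0.83. The difference of replicate 1 minus 2 had a correlation of -0.03 over genes between the media. Same-numbered libraries thus showed no shared deviation, but whether they shared a culture or a preparation is not known. Among the 53 other genes of the lists and profiles, 15 lost their calls after median centring and 8 under quantile normalization. Without GM2, 6 lost their calls (ADAMTSL2, ADAMTSL4, ADAM33, COL1A1, TGFBR2 and TNXB), 2 without GM1 (ADAMTSL2 and ADAM11) and 3 without HM2 (ADAMTSL4, ADAM33 and TGFBR2), and none of the 53 changed direction. Tests that need read counts were not run, since the depth behind the values is unknown.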
